A study of Homo sapiens with 10 samples.

Results

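The genes described here are 10 imprinted genes selected on their CPM in these same libraries. As a set they were chosen around differences seen between 2 human esophageal squamous carcinoma lines, which not all 10 genes show. They are the rows of the expression table, which lists 58302 genes, that carry the symbols PEG10, SGCE, PPP1R9A, SNRPN, NDN, MAGEL2, MEST, H19, IGF2 and PEG3. All 10 were in the table, 8 of them were above 0 in at least 1 library, and 7 passed the filter on low values. The cells were KYSE-410 and KYSE-30, both established lines, and their RNA was taken 48 h after an siRNA (small interfering RNA) was introduced. KYSE-410 received siCT, a non-targeting control, or siSHIP2, which targets INPPL1, the gene of the lipid phosphatase SHIP2, with 3 libraries each. KYSE-30 received the same siRNAs with 2 libraries each. Every group was thus transfected, and each line stands for a single tumor. Nothing in the labels tells whether replicates were grown separately, so a p-value here reflects how far these libraries scatter and may reflect technical scatter only.

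An imprinted gene is read from the copy inherited from a particular parent, because methylation laid down in the egg or the sperm marks a control region nearby. Such genes lie in clusters that share a control region, so that paternally and maternally expressed genes sit side by side. In tumors these marks can be lost or gained, and the genes of a cluster can then be read from both copies or from neither. The sequencing counted reads per gene and did not record which parental copy they came from. Neither methylation nor copy number was measured.

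Values are CPM (counts per 1000000 counts), and differences are of log2(CPM + 1), so that changes of weakly expressed genes come out too small. The floor, 3 of the scaled counts that the CPM steps correspond to, was 0.15 or 0.2 CPM depending on the library. The knockdown is visible in both lines, with INPPL1 at 107 to 109 CPM with siCT and 37.3 to 44.7 with siSHIP2 in KYSE-410, and at 36.2 to 39.9 and 23.2 to 24.5 in KYSE-30. Of 6 squamous epithelium markers, all 6 passed the filter, and their summed level was 359 to 477 CPM in KYSE-410 and 660 to 842 CPM in KYSE-30. ITGA6 carried most of these sums, at 343 CPM on average in KYSE-410 and 727 CPM in KYSE-30 with siCT. KRT5, a basal keratin, was at 13.4 ± 1.02 CPM (SD, n = 3) in KYSE-410 with siCT and at 0.2 ± 0.141 CPM (SD, n = 2) in KYSE-30, which is at the floor. TP63 was also higher in KYSE-410 with siCT, while KRT14, KRT6A, DSG3 and ITGA6 were higher in KYSE-30. Of 6 fibroblast markers 3 passed, with sums of 92.1 to 128 CPM in KYSE-410 and 6.0 to 6.89 CPM in KYSE-30. All 3, LUM, COL1A1 and DCN, were higher in KYSE-410 with siCT. LUM carried most of the sum there. COL1A1 was at 10.2 CPM in KYSE-410 and 6.15 CPM in KYSE-30 with siCT, and DCN at 1.33 and 0 CPM. COL1A2 and COL3A1 were under the floor on average in KYSE-410. Of 5 neuron markers 2 passed, with sums of 42.3 to 53.9 and 4.14 to 5.2 CPM, nearly all from SYT1, and SNAP25 was at 0 in all KYSE-410 libraries and in KYSE-30 with siCT. Of 5 trophoblast markers 2 passed, with sums of 1.8 to 3.75 and 2.45 to 3.5 CPM. Whether such cells or programs have a part in the levels below was not tested, and fewer cells with a transcript cannot be told apart from less of it per cell.

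Start sites of SNRPN, MEST and H19 are shown because these genes lie on opposite sides of the difference between the lines and share a short motif. SNRPN has 4 windows and MEST 5, numbered along the strand, and of these the windows that hold a motif are shown. Each line holds 250 bases before to 50 bases after an annotated start, from RefSeq (GRCh38.p14), read 5′ to 3′ on the strand of the gene. Capitals mark the core motif of the transcription factor NRF1, GCGCATGC, and in window 4 of SNRPN the core of the factor YY1, AAGATGGC, each searched on both strands.
SNRPN window 3, also a start of SNURF, chr15:24954737-24955036, plus strand: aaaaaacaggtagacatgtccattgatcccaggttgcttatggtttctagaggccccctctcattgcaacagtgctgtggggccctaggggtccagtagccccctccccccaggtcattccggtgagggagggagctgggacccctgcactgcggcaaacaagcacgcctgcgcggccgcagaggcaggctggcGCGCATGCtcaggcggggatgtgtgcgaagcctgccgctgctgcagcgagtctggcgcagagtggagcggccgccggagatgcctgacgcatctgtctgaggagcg
SNRPN window 4, chr15:24956050-24956349, plus strand: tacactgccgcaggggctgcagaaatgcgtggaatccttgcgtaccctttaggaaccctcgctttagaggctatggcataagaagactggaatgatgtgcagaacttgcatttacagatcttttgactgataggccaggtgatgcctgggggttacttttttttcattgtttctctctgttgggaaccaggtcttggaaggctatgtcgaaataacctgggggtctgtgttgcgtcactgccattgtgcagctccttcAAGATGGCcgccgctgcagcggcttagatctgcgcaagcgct
MEST window 2, chr7:130486097-130486396, plus strand: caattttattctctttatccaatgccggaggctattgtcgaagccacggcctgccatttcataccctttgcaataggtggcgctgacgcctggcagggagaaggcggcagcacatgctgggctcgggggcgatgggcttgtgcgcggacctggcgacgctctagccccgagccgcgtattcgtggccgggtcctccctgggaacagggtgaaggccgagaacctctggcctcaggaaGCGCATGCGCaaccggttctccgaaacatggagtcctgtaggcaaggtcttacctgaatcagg
MEST window 3, chr7:130491079-130491378, plus strand: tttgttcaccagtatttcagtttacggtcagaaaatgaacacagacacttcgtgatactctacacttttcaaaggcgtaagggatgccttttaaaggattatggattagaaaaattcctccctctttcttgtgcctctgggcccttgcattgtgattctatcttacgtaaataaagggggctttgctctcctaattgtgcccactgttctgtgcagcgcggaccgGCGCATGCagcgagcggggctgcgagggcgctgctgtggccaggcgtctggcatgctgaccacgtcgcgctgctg
H19, chr11:2001217-2001516, minus strand: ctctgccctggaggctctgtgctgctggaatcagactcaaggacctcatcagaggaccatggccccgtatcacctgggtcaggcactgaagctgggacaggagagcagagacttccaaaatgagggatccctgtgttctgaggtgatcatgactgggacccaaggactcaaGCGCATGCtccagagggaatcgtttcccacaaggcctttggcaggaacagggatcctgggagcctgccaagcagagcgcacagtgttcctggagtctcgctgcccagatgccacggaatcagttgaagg

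RefSeq windows were found for 6 of the 10 genes, 13 windows in all. The NRF1 core was in 4 windows of 3 genes, SNRPN, MEST and H19, while 3.05% of 35116 windows and 3.68% of 27305 genes hold it. SNRPN has 4 and MEST 5 of the 13 windows, and some windows of MEST overlap. A gene with more windows has more places for a match, so the share of genes is not a like comparison. The YY1 core was in window 4 of SNRPN only, against 2.89% of all windows. The windows of PPP1R9A, NDN and MAGEL2 held neither. In capitals in window 2 of MEST stands GCGCATGCGC, where matches on both strands overlap. These are matches of letters, not sites shown to be bound.

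Per kb of exon as well as in CPM, PEG10 was the most abundant of the 10 genes in KYSE-30, and SNRPN in KYSE-410. PEG10 encodes a protein derived from the Gag and Pol genes of a retrotransposon and is expressed from the paternal copy. SNRPN encodes SmN, a core protein of small nuclear ribonucleoproteins in the spliceosome, and is also paternally expressed. The pair differed in opposite directions. Since the set was chosen with such differences in view, the levels of the lines are given as a description without a test. The plot of CPM by library shows all 10 genes.

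**Figure D1:**
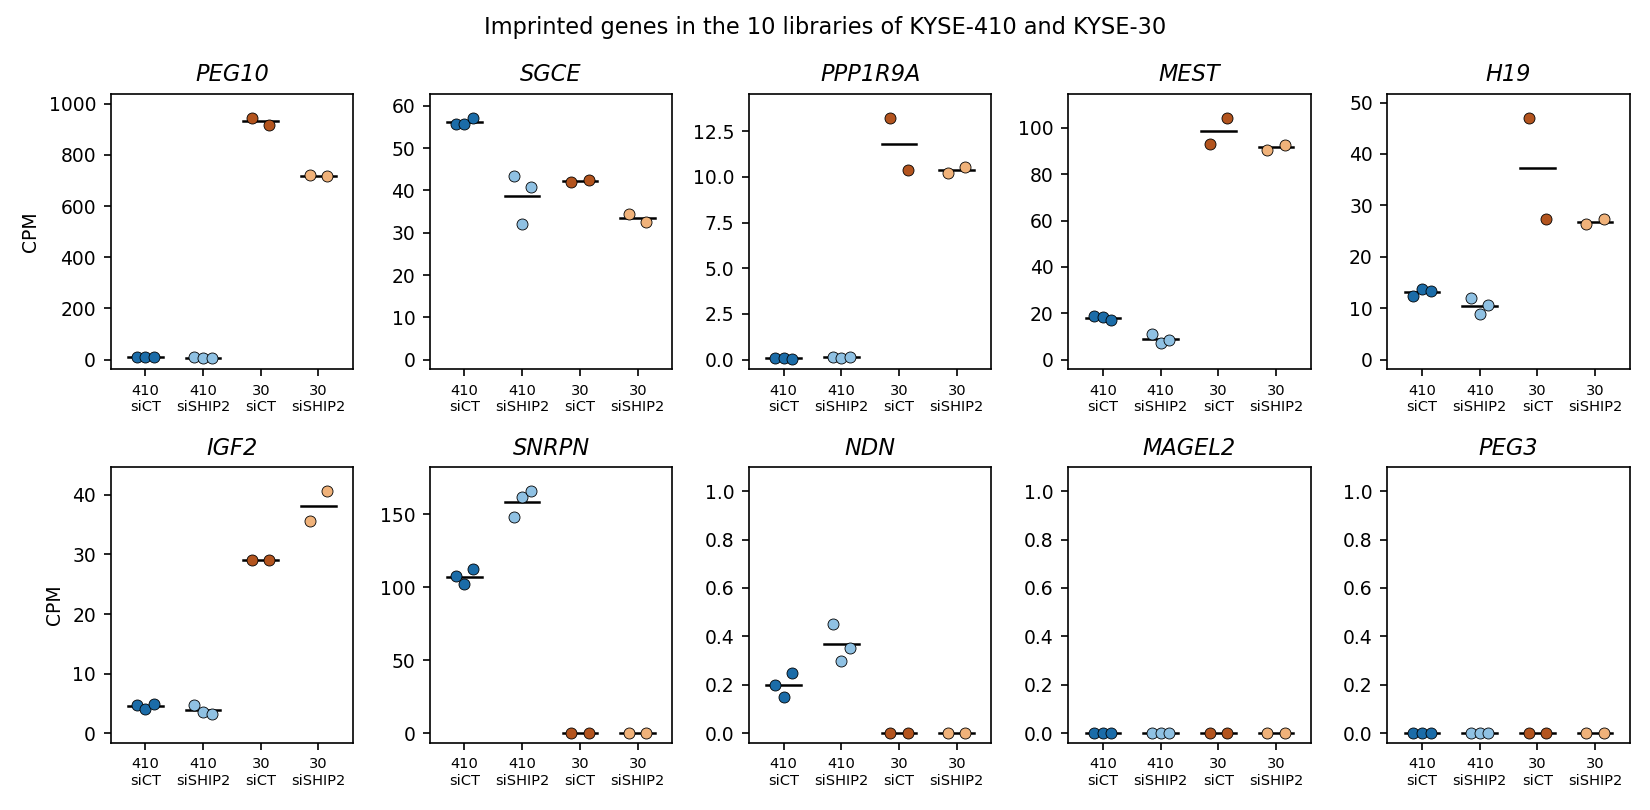
CPM of the 10 imprinted genes (vertical axis, linear and starting at 0, with its own scale in each panel) in each library of the 4 groups (horizontal axis, 410 for KYSE-410 and 30 for KYSE-30). Points are libraries and bars are group means. PEG10, PPP1R9A, MEST, H19 and IGF2 are higher in every KYSE-30 library, SNRPN and NDN are above 0 in KYSE-410 libraries only, SGCE overlaps, and MAGEL2 and PEG3 are at 0.

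On chromosome 7, band q21, PEG10 (ENSG00000242265, 94656325 to 94669695, plus strand, GRCh38, GENCODE 29) had 8.645, 9.494 and 9.294 CPM in KYSE-410 with siCT. In KYSE-30 with siCT it stood at 945.3 and 916.6 CPM. The means were 9.14 ± 0.444 CPM (SD, n = 3) and 931 ± 20.3 CPM (SD, n = 2), a 102-fold difference, and with siSHIP2 the difference was 95.3-fold. No library of either line came near those of the other. The log2 difference of 6.52 ranked 20th in size among 20466 tested genes. Only PADI3, which encodes an enzyme that converts arginine in proteins to citrulline, shared with PEG10 the pattern of over 500 CPM in every KYSE-30 library and under 10 CPM in every KYSE-410 library.

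SGCE encodes ε-sarcoglycan, a membrane protein linked to dystrophin, and is a paternally expressed neighbor whose start lies 247 bases from that of PEG10 on the opposite strand. SGCE (ENSG00000127990, 94524204 to 94656572, minus strand) stood at 55.7, 55.8 and 57.2 CPM in KYSE-410 with siCT. It stood at 42.0 and 42.6 CPM in KYSE-30 with siCT. The lines were thus 1.33-fold apart with siCT, KYSE-410 higher, and over all 10 libraries their ranges overlapped. The ratio of PEG10 to SGCE was 0.155 to 0.225 in the 6 KYSE-410 libraries and 20.9 to 22.5 in the 4 KYSE-30 libraries. The genes share 219 exon bases on opposite strands, 3.3% of the exon bases of PEG10 and 1.0% of those of SGCE, and whether the counting used strand is not given in the sources used here.

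PPP1R9A encodes neurabin, which binds actin and protein phosphatase 1, and starts 250.9 kb from PEG10. PPP1R9A (ENSG00000158528, 94907202 to 95296415, plus strand) stood at 13.2 and 10.4 CPM with siCT and at 10.2 and 10.5 CPM with siSHIP2 in KYSE-30. In KYSE-410 its values were 0.05 to 0.15 CPM, at or under the floor. From the scaled counts, 473 in 2 libraries against 5 in 3, the siCT ratio was 142 per library. A 95% binomial interval of 60.4 to 439 treats the scaled counts as reads, so it gives counting error only roughly and no other error. PPP1R9A thus had the direction of PEG10, and SGCE, which overlaps PEG10, had not.

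Other genes within 1 Mb on 7q21 moved in both directions. Of 38 such genes 9 were tested, of which 3 were called higher and 5 lower in KYSE-410. For this comparison 75.9% of all tested genes were called (37.2% higher and 38.7% lower), against which the counts at the other loci are to be read too. TFPI2, a protease inhibitor gene, was at 0.2 to 0.75 CPM in KYSE-410 and 5.75 to 9.49 CPM in KYSE-30. PON3, a paraoxonase gene, was at 1.2 to 2.2 and 7.35 to 11.04 CPM. CASD1, a sialic acid acetyltransferase gene next to SGCE, went the other way, with 28.1 to 32.6 CPM in KYSE-410 and 8.84 to 16.5 CPM in KYSE-30. DYNC1I1, a dynein subunit gene, was at 9.14 to 11.9 and 1.75 to 2.0 CPM, the largest difference in favor of KYSE-410 at this locus.

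On chromosome 15, bands q11 to q13, a run of transcripts was present in KYSE-410 and at 0 or low in KYSE-30. SNRPN (ENSG00000128739, 24823637 to 24978723, plus strand) stood at 107.5, 102.3 and 112.4 CPM in KYSE-410 with siCT and at 148.0, 162.1 and 165.9 CPM with siSHIP2. It was at 0 in all 4 KYSE-30 libraries. Against the floor of 0.2 CPM it was at least 537-fold higher in KYSE-410 with siCT and at least 793-fold higher with siSHIP2. Its log2 difference of 6.76 ranked 14th among the tested genes. Only 7 genes in the table were above 50 CPM in every KYSE-410 library and at 0 in every KYSE-30 library, namely SNRPN, SNURF, AC124312.1, LUM, PCDHB5, PNMA5 and TRBC2.

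SNURF and AC124312.1 share exons with SNRPN on the same strand, so their reads cannot be fully told apart. SNURF, which encodes a small protein from the 5′ part of the same transcript, shares 69.3% of its exon bases, and its ratio to SNRPN was 0.809 to 0.836 in the 6 KYSE-410 libraries. SNHG14, the long RNA that continues downstream and hosts small nucleolar RNAs, was at 141, 148 and 146 CPM in KYSE-410 with siCT. In KYSE-30 it was at 7.54 and 7.04 CPM with siCT, a 19.9-fold difference. SNHG14 overlaps UBE3A on the opposite strand, so that without stated strand its reads in KYSE-30, 6.89 to 7.85 CPM, cannot be told apart from those of UBE3A. PWAR5 and PWAR6 inside the unit were at 0 in KYSE-30. In CPM, SNRPN was below SNHG14 in all 3 siCT libraries of KYSE-410 and above it in 2 of the 3 siSHIP2 libraries.

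Of the small nucleolar RNAs inside that unit, those of the SNORD116 family were found in KYSE-410 alone. Of 30 genes of the SNORD116 family, which is deleted in Prader-Willi syndrome, 28 were above 0 in some KYSE-410 library and 0 in any KYSE-30 library. Their summed level was 5.15 to 8.1 CPM in KYSE-410. The 49 SNORD115 genes were at 0 in all 10 libraries. Near-identical copies make counts and calls of single SNORD genes uncertain.

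At the end of the region where NDN and MAGEL2 lie, both genes were near or at 0 in both lines. NDN encodes necdin and MAGEL2 a relative of it, both of the MAGE family and both paternally expressed. NDN (ENSG00000182636, 23685400 to 23687330, minus strand), 1136.3 kb from the annotated start of SNRPN, was at 0.15 to 0.25 CPM in KYSE-410 with siCT and 0.3 to 0.45 CPM with siSHIP2. It was at 0 in KYSE-30 and did not pass the filter, so no fold or test is given. MAGEL2 (ENSG00000254585, 23643549 to 23647867, minus strand) was at 0 in all 10 libraries, which allows a level of up to 0.15 or 0.2 CPM by the floor of each library. MKRN3, an imprinted ubiquitin ligase gene of that end, was present in both lines, at 6.95 to 12.6 CPM in KYSE-410 and 7.5 to 9.49 CPM in KYSE-30.

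Around SNRPN, NDN and MAGEL2, 150 genes lay within 1 Mb and 26 were tested. All 22 of those that limma called were higher in KYSE-410, while 75.9% of all tested genes were called (37.2% higher and 38.7% lower). Of the 22, 7 are SNORD genes of uncertain single counts. Between SNURF and SNORD116-22 lie 16 of the 22, where they overlap the SNRPN and SNHG14 transcripts and are no independent measures. In all, 25 of the 150 neighbors were above 0 in every KYSE-410 library and at 0 in every KYSE-30 library. They include SNURF and AC124312.1, which share exons with SNRPN, so the 25 are not independent either. At the other loci, 2 of 85 neighbors on 11p15, 4 of 114 on 19q13, and 0 on 7q21 and 7q32 had this pattern. The reverse pattern, and the share of all genes with either pattern, were not counted. UBE3A, which encodes a ubiquitin ligase and is maternally expressed in neurons, was at 134 to 164 CPM in KYSE-410 and 69.2 to 84.9 CPM in KYSE-30. The non-imprinted genes NIPA1, NIPA2 and CYFIP1 had log2 differences of 0.50, 0.99 and 0.75 in favor of KYSE-410, far smaller than that of SNRPN. TUBGCP5 beside them had a difference of -0.05.

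**Figure D2:**
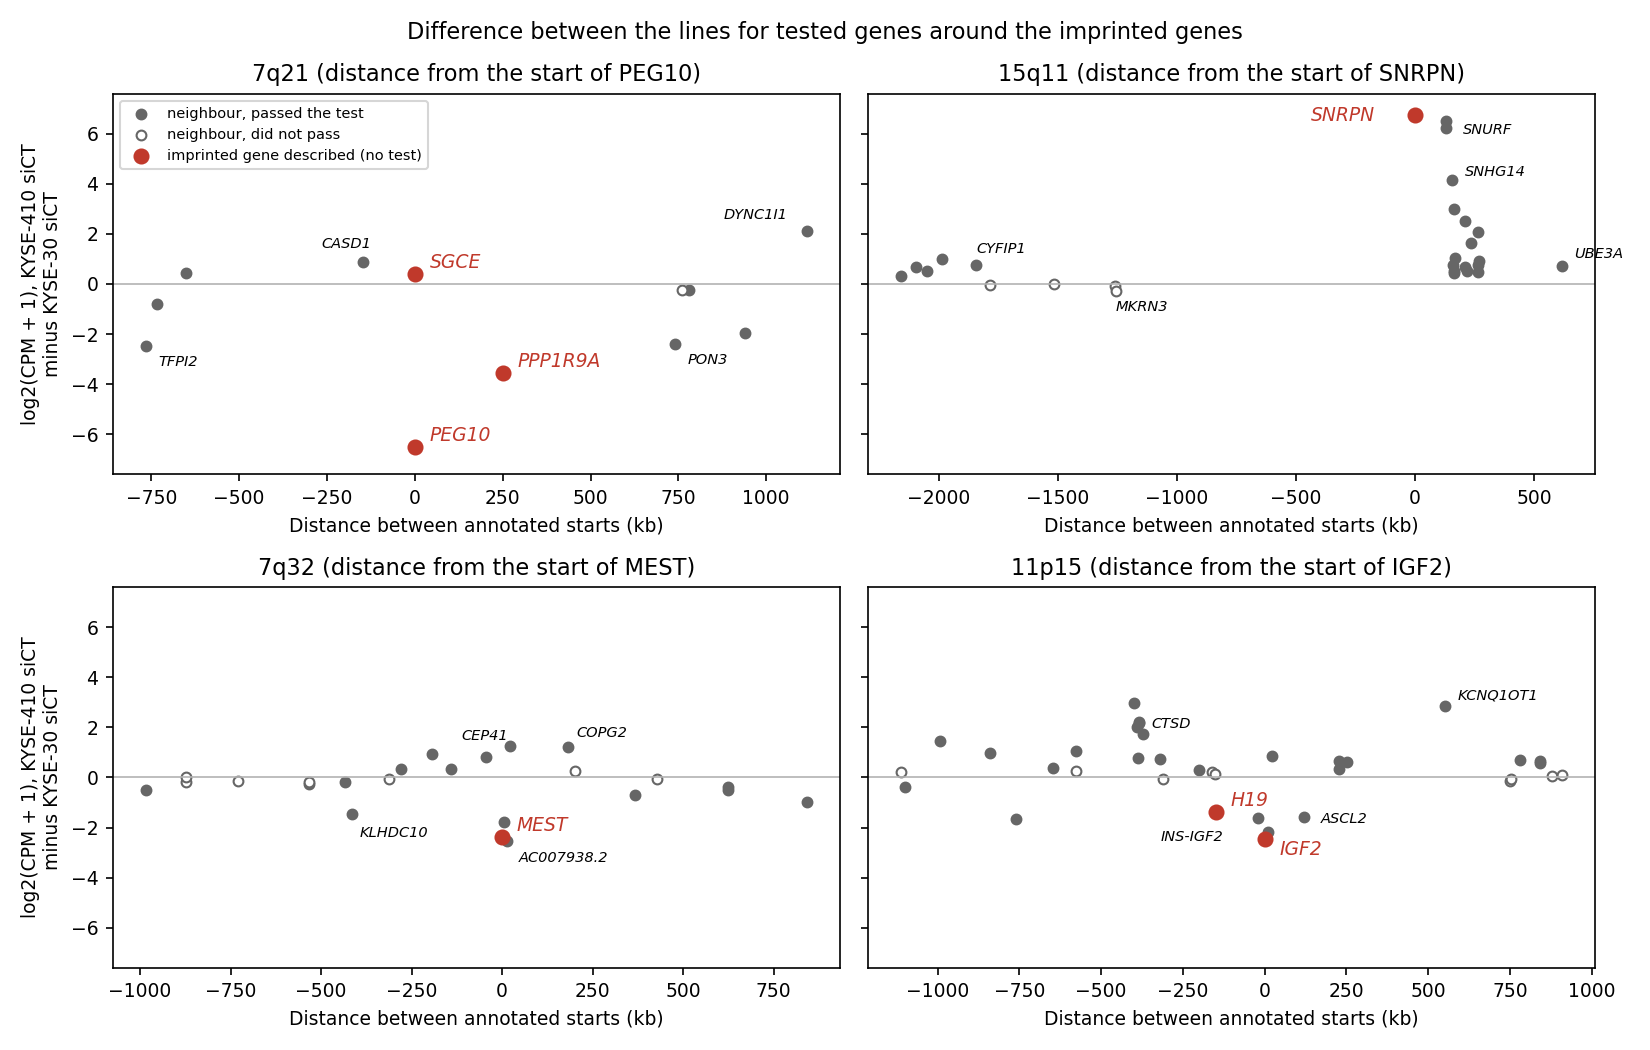
Difference between the lines with siCT (vertical axis, log2(CPM + 1) in KYSE-410 minus KYSE-30) against the distance between annotated starts in kb (horizontal axis) for tested genes at 4 loci. Red points are the imprinted genes described, filled gray points are neighbors past the limma threshold and open points are neighbors that did not pass. PEG10 and PPP1R9A lie below 0 while SGCE lies above it, and the genes next to SNRPN lie above 0.

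On chromosome 7, band q32, MEST was higher in KYSE-30. MEST encodes a protein with the fold of α/β hydrolases and is paternally expressed. MEST (ENSG00000106484, 130486171 to 130506465, plus strand) stood at 18.7, 18.3 and 17.2 CPM in KYSE-410 with siCT. It stood at 93.2 and 104.4 CPM in KYSE-30 with siCT. The difference was 5.47-fold with siCT and 10.3-fold with siSHIP2, and no libraries overlapped between lines.

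The antisense transcript AC007938.2, which shares 602 exon bases with MEST, was at 1.45 to 4.3 CPM in KYSE-410 and 28.1 to 29.4 CPM in KYSE-30. Without stated strand, these reads cannot be told apart from those of MEST. COPG2, a coatomer subunit gene on the other side of MEST, went the other way, with 91.0 to 129 CPM in KYSE-410 and 36.3 to 43.3 CPM in KYSE-30. CEP41, a centrosome gene 43.7 kb upstream, was at 34.8 to 48.8 and 19.6 to 21.1 CPM. Of 52 genes within 1 Mb of MEST 23 were tested, of which 6 were called higher and 10 lower in KYSE-410.

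On chromosome 11, band p15, H19 and IGF2 were both higher in KYSE-30. They share a control region to which CTCF binds on the maternal copy, so that H19, a long noncoding RNA, is read from the maternal copy and IGF2, a growth factor, from the paternal one. H19 (ENSG00000130600, 1995176 to 2001470, minus strand) stood at 12.4, 13.7 and 13.3 CPM in KYSE-410 with siCT. In KYSE-30 with siCT it stood at 47.1 and 27.4 CPM, so the replicates were far apart. The lines were 2.83-fold apart with siCT and 2.57-fold with siSHIP2, with no overlap.

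IGF2 (ENSG00000167244, 2129112 to 2149603, minus strand), 148.1 kb from H19, stood at 4.7, 4.05 and 4.9 CPM in KYSE-410 with siCT. It stood at 29.1 CPM in both siCT libraries of KYSE-30. The difference was 6.4-fold with siCT and 9.99-fold with siSHIP2. The ratio of H19 to IGF2 was 2.52 to 3.38 in KYSE-410 and 0.673 to 1.62 in KYSE-30. Per kb of exon, H19 was above IGF2 in every group, at 4.54 against 0.652 CPM per kb in KYSE-410 and 12.8 against 4.17 in KYSE-30 with siCT.

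INS-IGF2, a readthrough gene that shares 80.0% of its exon bases with IGF2, kept a ratio of 0.549 to 0.653 to it over all 10 libraries. KCNQ1OT1, a paternally expressed antisense RNA that organizes the next cluster on 11p15, went the other way, with 5.2 to 12.7 CPM in KYSE-410 and 0 to 0.1 CPM in KYSE-30. ASCL2, a maternally expressed transcription factor gene of that cluster, was at 0 to 0.15 CPM in KYSE-410 and 1.95 to 2.4 CPM in KYSE-30. IFITM10 had the largest difference in favor of KYSE-410, 2.96 on the log2 scale. Of 85 genes within 1 Mb 34 were tested, of which 20 were called higher and 5 lower in KYSE-410.

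On chromosome 19, band q13, PEG3 (ENSG00000198300, 56810077 to 56840728, minus strand), a paternally expressed zinc finger gene, was at 0 in all 10 libraries. Of 114 genes within 1 Mb 55 were tested, of which 37 were called higher and 7 lower in KYSE-410. These are largely zinc finger genes, from ZNF542P, a pseudogene, with -3.33 to ZNF671 with 2.54 on the log2 scale. Of the 114, 25 were at 0 in all libraries, among them the imprinted genes ZIM2, which shares 1264 exon bases with PEG3, ZIM3 and MIMT1.

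Per kb of exon the order with siCT in KYSE-410 was SNRPN (31.4 CPM per kb), H19 (4.54), MEST (3.77), SGCE (2.69), PEG10 (1.37), IGF2 (0.652), NDN (0.104) and PPP1R9A (0.00747). In KYSE-30 it was PEG10 (139), MEST (20.6), H19 (12.8), IGF2 (4.17), SGCE (2.02) and PPP1R9A (1.06), with the others at 0. The libraries of neighbors in either order did not overlap on this scale, apart from genes at 0. The length merges the exons of all annotated transcripts, 20884 bases for SGCE, and the order depends on it. By mean CPM with siCT, SGCE (56.2) was above MEST (18.1) and H19 (13.1) in KYSE-410. In KYSE-30 SGCE (42.3) was above H19 (37.2) and IGF2 (29.1) by mean CPM, and below MEST (98.8). Of the 7 tested genes 6 did not overlap between the lines, while 63.0% of all tested genes did not (32.7% with KYSE-410 higher and 30.3% with KYSE-30 higher). The median size of their log2 difference was 2.44 against 0.51 over all tested genes, and the choice of the genes fixes this.

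The genes most like PEG10 over the 10 libraries by Pearson's correlation of log2(CPM + 1) were SAT2 and UACA, both at r = 0.9994, and IGHVII-44-2 at 0.9993. Those most like SNRPN were SNURF and AC124312.1, both at 1.0000 and sharing its exons, and MAGEA11, a cancer-testis gene, at 0.9998. Since 706 and 818 genes reached 0.99, these values describe the split between the lines more than the genes.

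The treatment asks how these genes change with an siRNA that lowers INPPL1 mRNA, which was reduced and not absent. All siSHIP2 library names carry the same siRNA tag, and effects of that siRNA on other transcripts were not tested. The 10 genes were chosen around the difference between the lines, by a rule that names no siRNA effect, but with the values of all 10 libraries in view. In KYSE-410, 4 of the 7 tested genes passed the limma test, MEST, SGCE and PEG10 lower and SNRPN higher. Over all tested genes 49.9% passed (19.3% lower and 30.6% higher), so the count is near the background. Of all calls 61.3% were higher, but 46.7% under TMM scaling. The median change of the 7 was -0.25 on the log2 scale, against 0.07 over all tested genes.

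MEST fell most, with 10.9, 7.25 and 8.44 CPM with siSHIP2, 49.1% of the siCT mean (log2 -0.97, SE 0.101, limma adjusted p = 1.02e-06). All siSHIP2 libraries were below all siCT libraries, and over all tested genes 56.1% showed no overlap between these groups. Its antisense partner AC007938.2 went from 4.13 to 1.98 CPM, while COPG2 went from 94.9 to 127 CPM and CEP41 from 36.5 to 47.3 CPM. CPA4, a carboxypeptidase gene 193.0 kb from MEST, fell from 48.4 to 38.7 CPM (limma adjusted p = 0.000893), so the neighbors of MEST moved in both directions.

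SGCE fell to 43.5, 32.03 and 40.7 CPM (log2 -0.54, SE 0.0839, limma adjusted p = 6.19e-05), below every siCT library. PEG10 fell to 8.34, 7.2 and 7.09 CPM (log2 -0.25, SE 0.0615, limma adjusted p = 0.00303), also without overlap, but missed the threshold when KYSE-410 was fitted alone (adjusted p = 0.0514). SNRPN rose (log2 0.56, SE 0.0728, limma adjusted p = 1.04e-05), with every siSHIP2 library above every siCT library. SNHG14, at 162, 154 and 142 CPM with siSHIP2, overlapped its siCT range. MKRN3 went from 7.56 to 11.9 CPM (limma adjusted p = 0.000125).

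H19 stood at 11.9, 8.85 and 10.6 CPM with siSHIP2, below every siCT library, but did not pass (log2 -0.31, limma adjusted p = 0.0799). With TMM scaling H19 did pass (log2 -0.40, limma adjusted p = 0.0319). Its miss held in only 5 of 10 other settings (limma or edgeR adjusted p = 0.0285 to 0.207), so it depends on the processing. IGF2 stood at 4.75, 3.5 and 3.2 CPM, overlapping siCT (log2 -0.21, limma adjusted p = 0.127), and passed with TMM scaling (adjusted p = 0.043). PPP1R9A was at or under the floor in KYSE-410 in all 6 libraries, so its change there is not read.

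In KYSE-30, 1 of the 7 genes passed, PEG10, where 2.36% of all tested genes did (1.54% lower and 0.811% higher). PEG10 stood at 720.2 and 717.4 CPM with siSHIP2, 77.2% of siCT (log2 -0.37, SE 0.0754, limma adjusted p = 0.0208). It did not pass when KYSE-30 was fitted alone (adjusted p = 0.336), nor without any 1 of its 4 libraries (adjusted p = 0.0563 to 0.229). SGCE stood at 34.5 and 32.4 CPM with siSHIP2, below siCT, and did not pass (log2 -0.33, limma adjusted p = 0.0971). Over all tested genes 44.6% showed no overlap between siSHIP2 and siCT in KYSE-30, against which the genes below are to be read too. SGCE passed without the KYSE-410 siSHIP2 replicate 1 or 2, which share the estimate of the spread (limma adjusted p = 0.0443 and 0.02).

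MEST in KYSE-30 stood at 90.6 and 92.7 CPM with siSHIP2 (log2 -0.10, limma adjusted p = 0.731). IGF2 stood at 35.6 and 40.6 CPM, above siCT (log2 0.37, limma adjusted p = 0.155). H19 stood at 26.4 and 27.3 CPM (log2 -0.41, limma adjusted p = 0.228), and its value rests on the siCT libraries. Without siCT replicate 1 (47.1 CPM) the change was -0.03 (limma adjusted p = 0.983), and without siCT replicate 2 (27.4 CPM) it was -0.79 (limma adjusted p = 0.0159), where the lone siCT library is assumed to vary like the other groups. PPP1R9A had a change of -0.16 (limma adjusted p = 0.573).

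The test of the difference between the responses called 3 of the 7 genes, where 32.4% of all tested genes were called (19.5% with the larger value in KYSE-410 and 12.9% with the smaller). INPPL1 itself fell further in KYSE-410, to 37.4% of the siCT mean against 62.8% in KYSE-30. Whether this unequal knockdown has a part in the differences was not tested. MEST fell by more in KYSE-410, by 0.86 on the log2 scale (SE 0.159, limma adjusted p = 0.000697). IGF2 differed by -0.59 (SE 0.178, limma adjusted p = 0.0185), with siSHIP2 below siCT in KYSE-410 and above it in KYSE-30 on average. That call was lost without the KYSE-30 siCT replicate 1, siCT replicate 2 or siSHIP2 replicate 2 (adjusted p = 0.0623, 0.061 and 0.109), and without the filter on low values (adjusted p = 0.0518). The 0.56 of SNRPN (limma adjusted p = 0.00158) is its change in KYSE-410 alone, because SNRPN was at 0 in KYSE-30 and no response could be measured there. For PEG10 and SGCE the difference was 0.12 and -0.21 (limma adjusted p = 0.367 and 0.256), and a p that misses the threshold does not show that the lines respond alike.

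**Figure D3:**
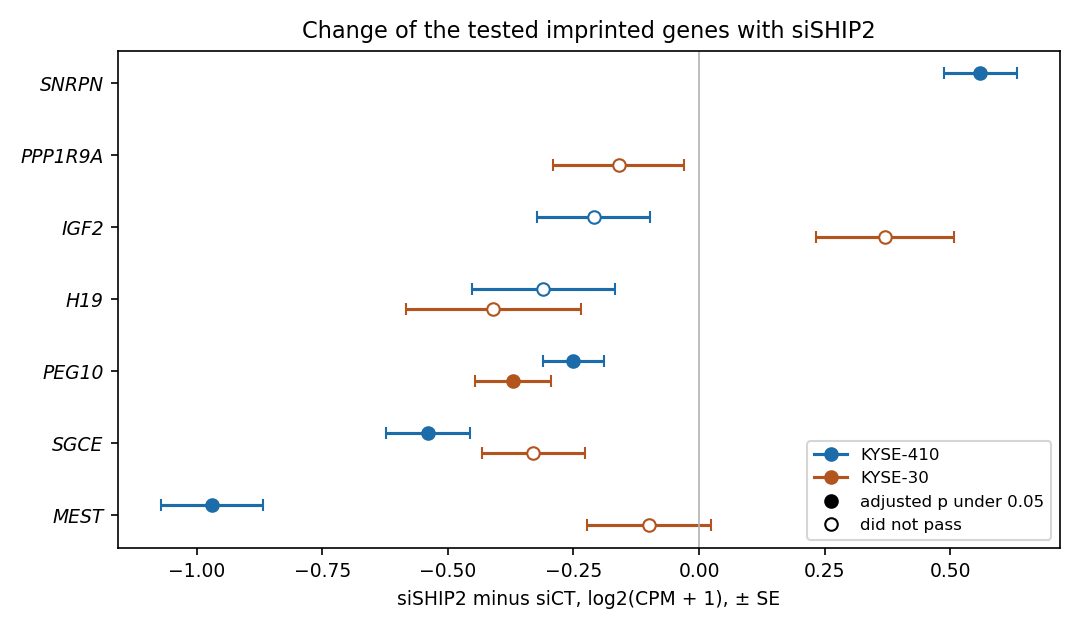
Change with siSHIP2 against siCT (horizontal axis, difference of log2(CPM + 1) with its SE from limma) for the 7 tested imprinted genes in KYSE-410 (blue, n = 3 per group) and KYSE-30 (orange, n = 2 per group). Filled points passed an adjusted p of 0.05. SNRPN is not drawn for KYSE-30 nor PPP1R9A for KYSE-410, where they were at or under the floor. MEST has the largest fall in KYSE-410, at -0.97, and SNRPN the only rise that passed.

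Other imprinted genes differed between the lines in both directions. Of 75 listed 74 were in the table and 45 were tested, of which 21 were called higher and 16 lower in KYSE-410. The list is not a separate set. It holds SNURF, which shares exons with SNRPN, and neighbors described above such as SNHG14, TFPI2, PON3, CASD1, COPG2, KCNQ1OT1 and ASCL2. These shares, and those with siSHIP2 below, are near the background of 75.9% called between the lines and of 30.6% higher and 19.3% lower with siSHIP2 in KYSE-410, against which the counts of the next lists are to be read too. GRB10, an adaptor that dampens insulin and IGF receptor signaling, was at 43.3 to 53.2 CPM in KYSE-410 and 0.1 to 0.2 CPM in KYSE-30. SLC22A3, an organic cation transporter gene, was at 5.45 to 9.39 CPM in KYSE-410 and 0 in KYSE-30. LIN28B, which blocks maturation of let-7 miRNAs, was at 0.3 to 0.65 CPM in KYSE-410 and 19.8 to 24.3 CPM in KYSE-30. With siSHIP2, 14 of the 45 rose and 9 fell in KYSE-410, and in KYSE-30 0 passed with limma (9 at an unadjusted p under 0.05) and 2 with edgeR. ZDBF2, a paternally expressed zinc finger gene, rose by 1.15 and IGF2R, the receptor that clears IGF2, fell by 0.83 on the log2 scale in KYSE-410.

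**Figure D4:**
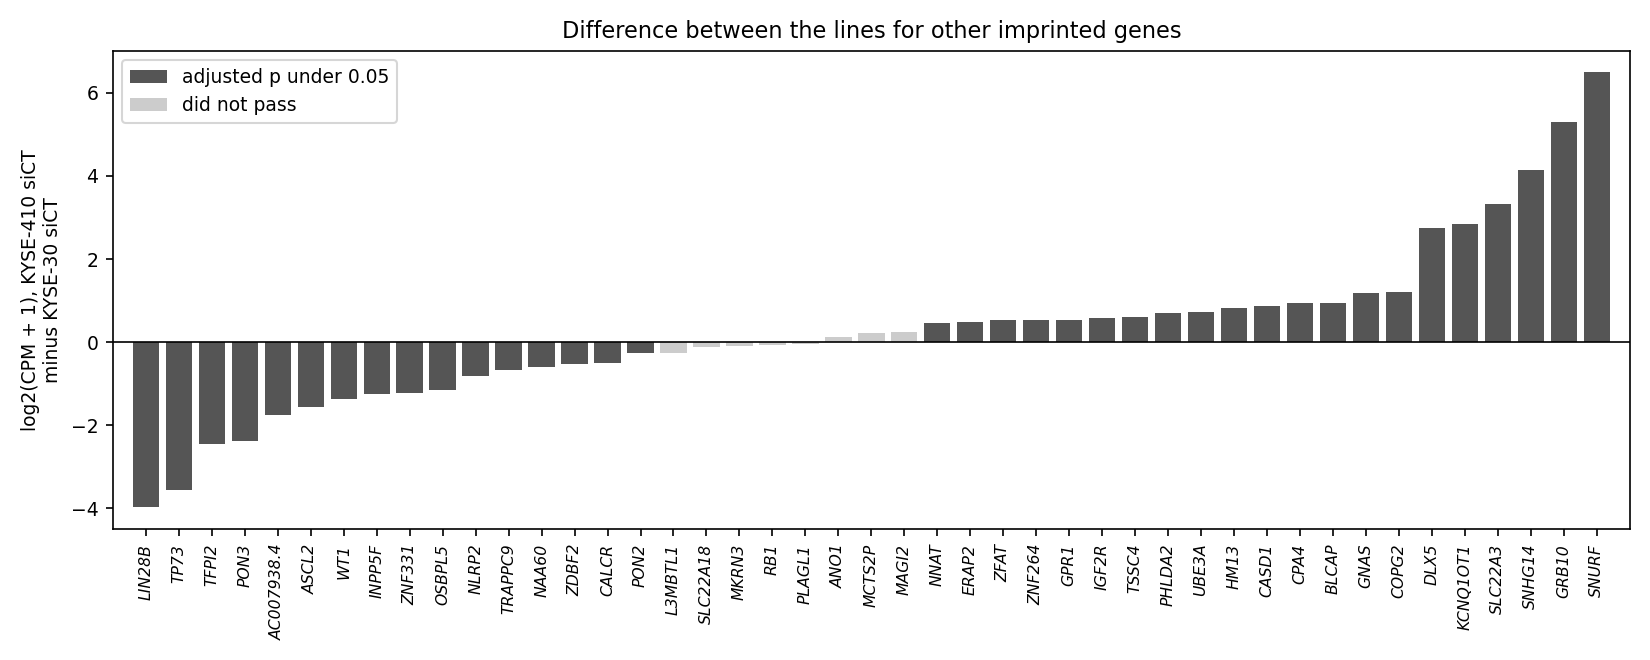
Difference between the lines with siCT (vertical axis, log2(CPM + 1) in KYSE-410 minus KYSE-30) for the 45 tested genes of the list of other imprinted genes (horizontal axis, ordered by value). Dark bars passed a limma adjusted p of 0.05 and light bars did not. The bars run from -3.98 for LIN28B to 6.49 for SNURF, which shares exons with SNRPN.

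Of 25 listed factors that set or keep imprints 20 were tested, and DNMT3L and DPPA3 were at 0 in all groups, while ZFP57, NLRP5 and NLRP7 were at or under the floor on average. Among these, 10 were called higher and 8 lower in KYSE-410. The demethylase gene TET1 had the largest difference, 1.81 on the log2 scale, and the histone demethylase gene KDM1B had -1.05. CTCF, the factor at the H19 control region, was at 114 to 131 CPM in KYSE-410 and 77.3 to 82.9 CPM in KYSE-30. With siSHIP2 in KYSE-410 4 rose and 4 fell, among them DNMT1, the maintenance methyltransferase, at -0.35, and its partner UHRF1 at -0.39 on the log2 scale. In KYSE-30 2 rose and 1 fell with limma, where 2.36% of all tested genes passed, and 1 passed with edgeR. UHRF1 was at 0.32 there, close to the threshold (limma adjusted p = 0.0483).

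The partners of SNRPN did not show its split. All 10 listed genes of Sm proteins and their assembly were tested, and 3 were called higher and 3 lower in KYSE-410. SNRPB, whose product SmN can replace, was at 207 to 266 CPM in KYSE-410 and 262 to 291 CPM in KYSE-30. With siSHIP2 in KYSE-410 SNRPB rose by 0.25 and SNRPD2 fell by 0.55 on the log2 scale.

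Of 14 genes of the sarcoglycan and dystrophin complex, to which SGCE belongs, 11 were tested, and 9 were called higher and 2 lower in KYSE-410. SGCB, β-sarcoglycan, had a difference of 4, SSPN of 3.32 and DMD, dystrophin, of 2.54 on the log2 scale. With siSHIP2 in KYSE-410, 6 fell and 2 rose, with DAG1, dystroglycan, at -0.78 and SGCB at 0.60. In KYSE-30 0 passed with limma or edgeR, and 0 had an unadjusted limma p under 0.05.

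On the IGF axis 13 of 16 genes were tested, and 6 were called higher and 7 lower in KYSE-410. IGF2BP1, an mRNA-binding protein gene, was at 49.9 to 52.3 CPM in KYSE-410 and 149 to 168 CPM in KYSE-30, and IGF2BP2 at 52.1 to 116 and 257 to 311 CPM. The binding protein gene IGFBP4 had a difference of 3.19 and IGFBP3 of -2.45. With siSHIP2 5 rose and 7 fell in KYSE-410, with INSR, the insulin receptor, at 1.59 and IGF2BP2 at -1.02. IGFBP3 rose by 1.66 in KYSE-410 and fell by 0.66 in KYSE-30.

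Among genes that descend from Gag, like PEG10, 11 of 19 were tested, and 3 were called higher and 6 lower in KYSE-410. PNMA5 was at 157 to 200.2 CPM in KYSE-410 and 0 in KYSE-30, opposite to PEG10. LDOC1 was at 0 to 0.15 and 30.8 to 36.3 CPM, the direction of PEG10. With siSHIP2 in KYSE-410 6 rose and 1 fell, while in KYSE-30 0 passed with limma or edgeR and 2 had an unadjusted limma p under 0.05.

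Of 22 genes of the MAGE family and its partners 15 were tested, and 5 were called higher and 8 lower in KYSE-410. MAGEA12 was at 59.5 to 71.4 CPM in KYSE-410 and 0.949 to 1.75 CPM in KYSE-30, and MAGEB2 at 0 and 41.6 to 44.2 CPM. With siSHIP2 8 rose and 3 fell in KYSE-410. In KYSE-30 2 fell with limma, while 1 passed with edgeR. MAGED2 rose by 0.45 in KYSE-410 and fell by 0.42 in KYSE-30. All 13 genes of protein phosphatase 1 and its partners were tested, of which 6 were called higher and 5 lower in KYSE-410, with PPP1R3C, a glycogen-targeting subunit, at -3.84. The paralog of PPP1R9A, PPP1R9B, had -0.48. With siSHIP2 in KYSE-410 7 rose and 5 fell, with the catalytic subunit PPP1CC at -0.88.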

How the data were processed

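Total RNA libraries (Ovation Solo, per the labels' protocols) of 10 samples in 4 groups were used. STAR 2.5.3a, HTSeq and the build hg38 are named in the submitters' processing notes. The deposited table gives CPM, computed by the authors. All values above 0 are whole multiples, within 0.1 of a step, of 0.0499 to 0.05 CPM, and the whole numbers sum to 20009826 to 20022857 per library. They look like counts scaled to a common total; no source states this, so true depth is not known.

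The 20466 genes that reached 0.5 CPM in 2 or more libraries were fitted as log2(CPM + 1) with 4 group means over all 10 libraries by limma 3.58.1 (trend, R 4.3.3), with Benjamini-Hochberg adjustment over all tested genes at 0.05. No edgeR test served as the main result, because the values are CPM; edgeR 4.0.16 on the recovered whole numbers was an alternative, as were TMM, relative log expression and upper quartile scaling, other filters, another pseudocount, each line alone, a replicate block and leaving out each library. The procedure was tested on simulated data.

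The genes and lists were chosen with earlier results of these data known. Named are the 10 genes, the 3 genes most correlated with PEG10 and SNRPN, at each locus the extremes and some neighbors picked after their values were seen, and from each list genes with the largest differences between lines or smallest adjusted p, again with some picked later. Positions are from GENCODE 29 (58039 of 58302 identifiers matched), promoters from RefSeq. Other steps used Python 3.11.15 (scipy 1.17.1, numpy 2.4.6, matplotlib 3.10.9, pandas 2.3.3). Intervals and floors treat the scaled counts as reads and cover at most counting error.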

Additional observations from a re-analysis of the deposited data

Results flagged for a closer look

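The response to siSHIP2 differed between the lines, by the interaction test of limma, for MEST (-0.86 on the log2 scale), IGF2 (-0.59) and SNRPN (0.56). For SNRPN the value is its change in KYSE-410, because KYSE-30 was at 0, and edgeR gave it an adjusted p of 1. The call of IGF2 was lost without the filter on low values (limma adjusted p = 0.0518). INPPL1 was at 37.4% of the siCT mean in KYSE-410 and 62.8% in KYSE-30, and whether this unequal knockdown has a part was not tested.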

How the results depend on the processing

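Leaving out libraries or pooling less of the spread moved the KYSE-30 results most. The 482 genes called with siSHIP2 in KYSE-30 became 78 without a filter, 0 with each line alone and 236 with the replicate block, and 14 to 812 when a library was left out, with 14 without KYSE-30 siSHIP2 replicate 1 and 16 without KYSE-30 siCT replicate 1. The imprinted genes called there went from 1 to 0 without a filter and with each line alone, and from 0 to 2 over the left-out libraries. The difference between responses of H19 (0.10) ran from -0.28, reversed, without KYSE-30 siCT replicate 1 to 0.48 without KYSE-30 siCT replicate 2; the cause was not tested. Deviations of same-numbered libraries from their group means had correlations of 0.041, -0.165 and 0.092 in KYSE-410 and -0.116 in KYSE-30. With 2 libraries per group the deviations mirror each other, so both numbers of KYSE-30 give the same value. Correlations from so few libraries cannot exclude a pairing. With the numbers of KYSE-30 crossed, a pairing chosen after seeing the data, 465 genes were called there. Without a filter PEG10 in KYSE-30 had an adjusted p of 0.0707. PEG10 in KYSE-410 missed the threshold with the line alone (adjusted p = 0.0514), and H19 passed there with edgeR (0.0406). Calls rest on 2 libraries per group in KYSE-30, which limits them.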
